A study of Mus musculus with 6 samples.

Results

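The genes described here are 9 neural crest genes, *Sox10*, *Sox9*, *Foxd3*, *Tfap2a*, *Tfap2b*, *Twist1*, *Ngfr*, *Erbb3* and *Snai2*, out of 55401 genes in a raw count table of mouse embryos. They were chosen by symbol, and each symbol matched a single Ensembl identifier. RNA-seq was performed on whole embryos at midgestation (E10.5) on a C57BL/6J background, with 3 libraries per genotype. WT embryos were wild-type littermates with an unmodified *Igf2* locus. 5C embryos carried a tandem array of *Mir483* copies at the endogenous *Igf2* gene, built by cassette exchange in embryonic stem cells, whose selection marker was removed with Cre in culture, and inherited from chimeric males. How many stem cell clones lie behind the line is not given in the sources used here. Each library was, per the methods, a pool of 2 male embryos.

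The neural crest arises at the border of the neural plate, leaves the dorsal neural tube by an epithelial-to-mesenchymal transition and migrates through the embryo. It forms peripheral neurons and glia, melanocytes, and much of the skeleton and connective tissue of the face. In the mouse at midgestation, migration is still under way in the trunk while cranial crest cells already fill the facial primordia. AP-2 factors (*Tfap2a*, *Tfap2b*) and *Foxd3* specify the lineage, *Snai2* and *Twist1* act in the transition and in mesenchyme, *Sox9* and *Sox10* are SoxE factors that lead towards cartilage and towards glia and melanocytes, and *Ngfr* and *Erbb3* are receptors on migrating cells and glial precursors. None of these genes is restricted to the crest. *Sox9* also marks sclerotome and *Twist1* marks paraxial and limb mesoderm, and in a whole embryo these sources are summed.

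The mature sequences of the overexpressed microRNA are shown first, because their seed (bases 2 to 8, in capitals) defines which of the 9 transcripts contain a match. They are taken from RefSeq (GRCm38.p6) and lie on the minus strand of chromosome 7, at chr7:142654932-142654952 for the 3p arm and chr7:142654968-142654989 for the 5p arm.
mmu-miR-483-3p: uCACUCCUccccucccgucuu
mmu-miR-483-5p: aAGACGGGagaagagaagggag

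The 3′ UTR of the longest annotated coding transcript of each gene was searched on the sense strand for AGGAGTG, the match to the miR-483-3p seed, and CCCGTCT, the match to the miR-483-5p seed. Only *Erbb3* of the 9 genes held a match, and it held 2 of them, both to miR-483-3p. At least 1 such match was present in 12.4% of the 13900 tested genes with a 3′ UTR, and 2 or more in 1.71%. The *Erbb3* matches begin at bases 451 and 1554 of a 3′ UTR of 1845 bases, in GRCm38 at chr10:128568900-128568928 and chr10:128567797-128567825 on the minus strand (coordinates of the printed windows). The capitals mark the match, and the distal match is followed by g where the proximal match is followed by a.
*Erbb3* proximal match: tcaaagctttgAGGAGTGaagttaggagt
*Erbb3* distal match: tcatctcaggaAGGAGTGgagatgacaca

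A 6-base match to miR-483-3p (GGAGTG) was found outside *Erbb3* in *Tfap2a*, which held 1, and in *Ngfr*, which held 2. This shorter motif was present in 31.6% of tested genes with a 3′ UTR. No match of 7 or 6 bases to miR-483-5p was found in any of the 9 genes, whose 3′ UTRs ranged from 588 bases in *Foxd3* to 4229 bases in *Tfap2b*. A sequence match is a description and says nothing of binding.

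Library totals ranged from 6357343 to 19151368 counts, which places the level of 3 counts between 0.157 and 0.472 CPM on these uncorrected totals. All other CPM values are counts scaled to the TMM-corrected library total. *Mir483* was higher in each 5C library (2.56 to 5.15 CPM) than in each WT library (0.319 to 0.577 CPM), as the labels require, a log2 fold change of 3.05 with an adjusted p of 0.170 in edgeR's quasi-likelihood test. *Igf2*, the host gene, averaged 14.1 ± 4.95 CPM in WT against 10.1 ± 0.366 CPM in 5C (SD, n = 3 each; adjusted p = 0.781). Exons of *Gm49394* on the same strand cover 62.8% of its exon bases, so its counts are uncertain, and its log2 fold change of -0.48 became -0.75 without WT replicate 2 and -0.28 without WT replicate 1. WT replicate 1 stood apart in yolk sac endoderm markers, whose summed level was 6039 CPM there and between 119 and 1170 CPM in the other libraries. Y-linked transcripts were nearly absent from WT replicate 2 (4.12 CPM) and 5C replicate 2 (0.0854 CPM), against 130 to 212 CPM in the others, and *Xist* was present in all libraries at 495 to 914 CPM, so the pools go against the stated sex. Decidual markers summed to 14.9 to 59.0 CPM and primitive erythroid markers to 8246 to 16050 CPM. Trophoblast markers summed to at most 6.19 CPM, with *Gcm1* and *Syna* at 3 counts or fewer in every library. The 9 genes are given below with and without these libraries.

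Across all genes, 16784 were tested and 0 were differentially expressed (adjusted p under 0.05 and fold change over 1.5, 0% of genes), in edgeR's quasi-likelihood test. An unadjusted p under 0.05 was reached by 1011 genes (6.02%), 2.55% of genes being higher and 3.47% lower in 5C. DESeq2 called 11 genes, and none of them was a neural crest gene.

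All 9 neural crest genes were detected in every library and passed the filter on low counts. None was differentially expressed, and the smallest adjusted p among them was 0.781. *Twist1* and *Tfap2b* were higher in each 5C library than in each WT library, *Tfap2a*, *Erbb3*, *Snai2* and *Sox9* had lower means in 5C with overlapping values, and *Sox10*, *Foxd3* and *Ngfr* differed least. The log2 fold changes ranged from -0.31 to 0.21, with a median of -0.09 against -0.0024 over all genes tested, and 5 of the 9 were below 0 against 50.7% of all genes. At an unadjusted p under 0.05 stood 1 gene, *Twist1*, against 6.02% of all genes and 2.55% in its direction. The genotypes did not overlap for 2 genes, both higher in 5C, against 11.4% of all genes (6.26% higher and 5.1% lower). In whole embryos, fewer cells of a type and less RNA per cell cannot be told apart.

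**Figure D1:**
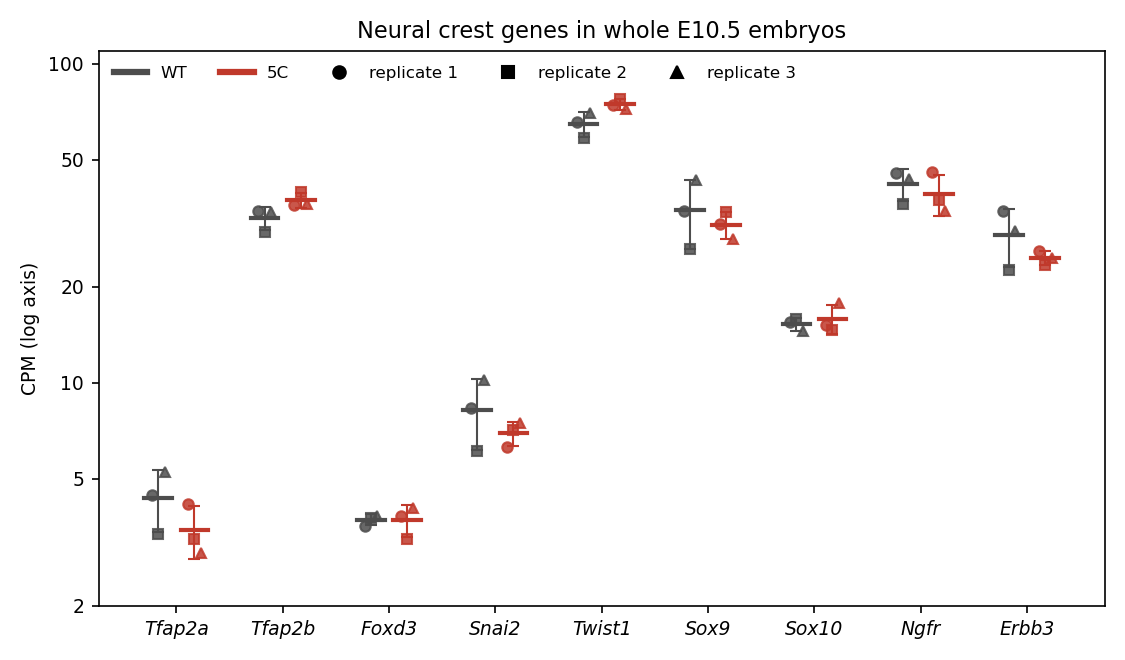
Level of each neural crest gene in CPM on a log axis, with WT in grey and 5C in red. Symbols mark the replicate, horizontal bars the mean and whiskers the SD of 3 libraries. Only *Tfap2b* and *Twist1* show 5C libraries that all lie above the WT libraries.

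The AP-2 factors were examined as genes of the neural plate border and the early crest. *Tfap2b* (ENSMUSG00000025927; chromosome 1, 19208914 to 19238576, plus strand) encodes an AP-2 factor of crest, sympathetic neurons and kidney. It measured 34.6, 29.8 and 34.3 CPM in the WT libraries, against 36.1, 39.6 and 36.4 CPM in those of 5C. Each 5C library thus lay above each WT library. The means were 32.9 ± 2.69 and 37.4 ± 1.95 CPM (SD, n = 3 each), which is 0.18 on the log2 scale (95% interval -0.02 to 0.39) with p-values of 0.0720 before and 0.781 after adjustment in edgeR's quasi-likelihood test.

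*Tfap2a* (ENSMUSG00000021359; chromosome 13, 40715302 to 40738376, minus strand) encodes the AP-2 factor needed for closure of the cranial neural tube and face, and is also active in surface ectoderm. It measured 4.46, 3.35 and 5.26 CPM in the WT libraries, against 4.18, 3.24 and 2.92 CPM in those of 5C. The genotypes overlapped, with the lowest value in 5C replicate 3 and the highest in WT replicate 3. The log2 fold change of -0.31 was the lowest of the 9 genes, yet its 95% interval, from -0.83 to 0.20, was also the widest, at 33 to 85 counts per library. This gave an unadjusted p of 0.206 (adjusted, 0.797). The value was -0.48 without 5C replicate 1, -0.20 without 5C replicate 3 and -0.19 without WT replicate 3. Of its 4903 exon bases, 718 (14.6%) lie under antisense exons of *Gm26688*, *Gm47061* and *Gm47067*, and the strand setting of the counting was not stated, so its level is uncertain.

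*Foxd3* (ENSMUSG00000067261; chromosome 4, 99656299 to 99658622, plus strand), a forkhead repressor that holds crest progenitors undifferentiated, was the gene with the smallest difference. It measured 3.57, 3.78 and 3.83 CPM in the WT libraries, against 3.82, 3.24 and 4.06 CPM in those of 5C. Among the 5C libraries, replicate 1 lay inside the WT range, replicate 2 below it and replicate 3 above it. The means of 3.73 ± 0.138 and 3.71 ± 0.418 CPM (SD, n = 3 each) gave a log2 fold change of 0.00 with a 95% interval of -0.40 to 0.41. At 24 to 68 counts per library, a change of 1.33-fold upwards or to 0.757 of the WT level lies at the edge of that interval. Of its exon bases, 89 (3.83%) are shared with *Gm23366* on the same strand, which had 0 counts in every library.

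The factors of the epithelial-to-mesenchymal transition differed in sign. *Twist1* (ENSMUSG00000035799; chromosome 12, 33957671 to 33959829, plus strand), a basic helix-loop-helix factor of cranial crest mesenchyme and limb buds, measured 65.5, 58.7 and 70.2 CPM in the WT libraries, against 74.1, 77.9 and 72.1 CPM in those of 5C. All 5C libraries lay above all WT libraries, with WT replicate 3 and 5C replicate 3 nearest to each other. The means were 64.8 ± 5.77 and 74.7 ± 2.92 CPM (SD, n = 3 each). This is a log2 fold change of 0.21 with a standard error of 0.08, or 1.16-fold (95% interval 1.02 to 1.31), with an unadjusted p of 0.0300. The adjusted p of 0.781 in edgeR's quasi-likelihood test did not pass.

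*Snai2* (ENSMUSG00000022676; chromosome 16, 14705852 to 14709385, plus strand), a zinc-finger repressor of epithelial genes in migrating crest and mesenchyme, measured 8.34, 6.10 and 10.2 CPM in the WT libraries, against 6.30, 7.09 and 7.48 CPM in those of 5C. The 5C values all lay inside the WT range, which was wider: the SD was 25.1% of the mean in WT and 8.59% in 5C. The log2 fold change was -0.22 (95% interval -0.66 to 0.22), with an unadjusted p of 0.281. It was -0.07 without WT replicate 3 and -0.40 without WT replicate 2.

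Among the SoxE factors, *Sox10* was steady and *Sox9* was not. *Sox10* (ENSMUSG00000033006; chromosome 15, 79154908 to 79165240, minus strand), the factor that maintains migrating crest and directs glia and melanoblasts, measured 15.5, 15.9 and 14.5 CPM in the WT libraries, against 15.2, 14.7 and 17.8 CPM in those of 5C. Its highest library exceeded its lowest 1.23-fold, the smallest ratio of the 9 genes. From means of 15.3 ± 0.702 and 15.9 ± 1.68 CPM (SD, n = 3 each) came a log2 fold change of 0.05, with a 95% interval of -0.21 to 0.31 and an unadjusted p of 0.675. Changes to below 0.864 or above 1.24 of the WT level lie outside this interval.

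*Sox9* (ENSMUSG00000000567; chromosome 11, 112782224 to 112787760, plus strand), which acts in the premigratory crest and drives cartilage, measured 34.7, 26.4 and 43.2 CPM in the WT libraries, against 31.5, 34.2 and 28.2 CPM in those of 5C. The 5C libraries again fell within the WT range, whose ends were WT replicates 2 and 3. The means of 34.8 ± 8.44 and 31.3 ± 3.03 CPM (SD, n = 3 each) gave a log2 fold change of -0.14 (95% interval -0.50 to 0.22) and an unadjusted p of 0.408. With 271 to 661 counts per library, counting error was between 3.89% and 6.08%, beside a spread of 24.3% of the mean among WT libraries.

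Of the receptors, *Ngfr* (ENSMUSG00000000120; chromosome 11, 95568818 to 95587735, minus strand) encodes the low-affinity neurotrophin receptor by which crest cells are often isolated. It measured 45.5, 36.5 and 43.7 CPM in the WT libraries, against 45.7, 37.4 and 34.6 CPM in those of 5C. The genotypes overlapped almost fully, and the log2 fold change was -0.09 (95% interval -0.37 to 0.18) with an unadjusted p of 0.469. It ranged from -0.22 without 5C replicate 1 to -0.0092 without 5C replicate 3.

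*Erbb3* (ENSMUSG00000018166; chromosome 10, 128567523 to 128589652, minus strand) encodes the neuregulin receptor that pairs with *Erbb2* in Schwann cell precursors, and it is the gene with the miR-483-3p matches printed above. It measured 34.6, 22.6 and 30.0 CPM in the WT libraries, against 25.9, 23.5 and 24.6 CPM in those of 5C. The 5C values were close together and lay inside the WT range, above WT replicate 2 and below the other WT libraries. The means were 29.1 ± 6.05 and 24.6 ± 1.20 CPM (SD, n = 3 each). On the log2 scale the change was -0.24 (95% interval -0.57 to 0.09), its unadjusted p 0.131 and its adjusted p 0.781 in edgeR's quasi-likelihood test. The median log2 fold change of the 238 tested genes with 2 or more miR-483-3p matches was -0.04, against -0.0014 for genes without a match. For miR-483-5p, to which *Erbb3* holds no match, it was -0.15 in the 27 genes with 2 or more matches, against -0.0032 without a match. Genes with and without a match were compared without regard to GC content or 3′ UTR length. Whether the matches play a part was not tested. *Erbb3* was highest in WT replicate 1, where yolk sac markers were also highest and where surface epithelium markers summed to 235 CPM, against 119 to 180 CPM in the other libraries; their part in the result was not tested. Without WT replicate 1 the log2 fold change of *Erbb3* was -0.08; in that fit 4.63% of all genes had an unadjusted p under 0.05 (2.61% lower).

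**Figure D2:**
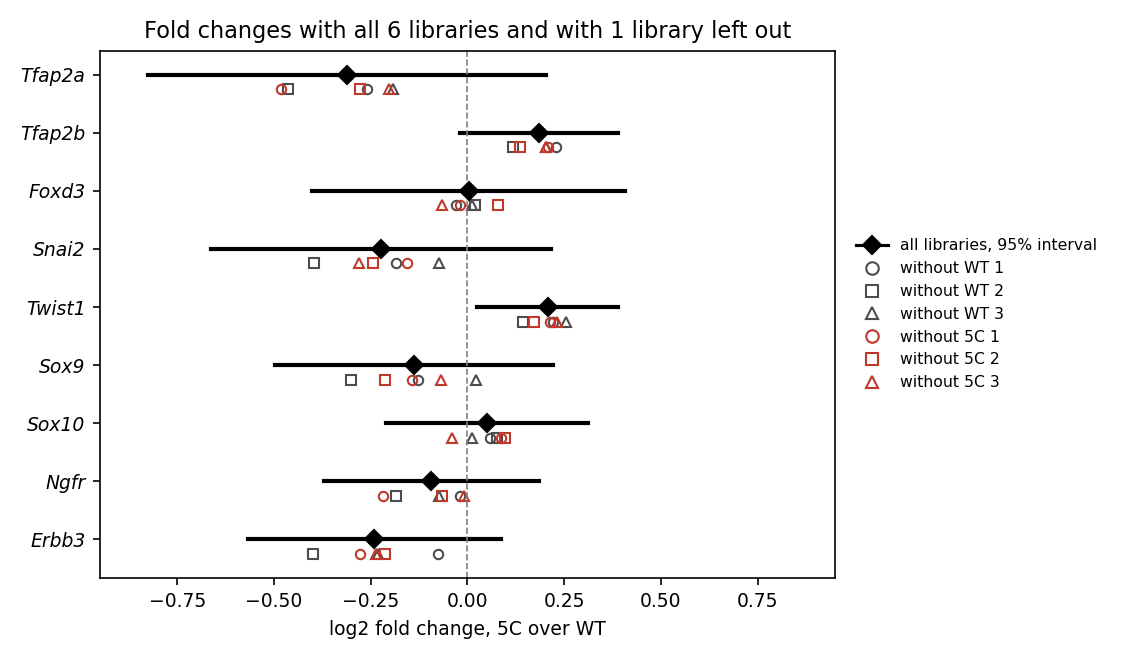
Log2 fold change of 5C over WT for each neural crest gene. Black diamonds with lines give the value and 95% interval with all 6 libraries, and open symbols give the value with 1 library left out. The interval lies above 0 for *Twist1* alone, and leaving out WT replicate 2 lowers the value most for *Snai2*, *Sox9* and *Erbb3*.

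Much of the spread between libraries was shared by several of these genes. WT replicate 2 was the lowest of the 6 libraries for 5 of the 9 genes (*Sox9*, *Tfap2b*, *Twist1*, *Erbb3* and *Snai2*) and the highest for none. WT replicate 3 was the highest for 3 (*Sox9*, *Tfap2a* and *Snai2*). The deviation of log2 CPM from the gene's own mean, taken as the median over the 9 genes, was -0.23 in WT replicate 2 and 0.12 in WT replicate 3, and lay between -0.08 and 0.09 in the other libraries. *Sox10* and *Foxd3* did not follow this: WT replicate 2 deviated by 0.03 for both genes.

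**Figure D3:**
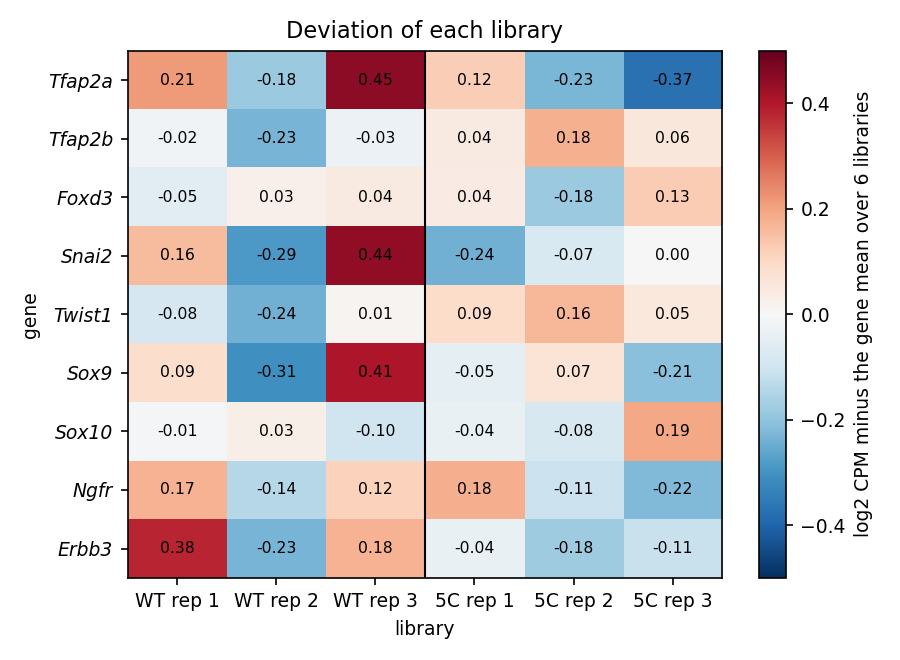
Log2 CPM of each neural crest gene (rows) in each library (columns) minus the gene's mean over 6 libraries, on a colour scale from -0.5 to 0.5 with the value printed in each cell. WT replicate 2 is below the mean for 7 of 9 genes, and WT replicate 3 is above it for 7 of 9.

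Since WT replicate 2 is also the WT library with few Y-linked transcripts, the comparison was repeated without it and within the libraries of each kind. Without WT replicate 2, 3 genes had an unadjusted p under 0.05, all lower in 5C, against 10.4% of all genes in that fit and 7.03% in that direction. These were *Erbb3* (log2 fold change -0.40, unadjusted p = 0.00463), *Sox9* (-0.30, unadjusted p = 0.0430) and *Snai2* (-0.40, unadjusted p = 0.0476), with adjusted p-values between 0.390 and 0.479 in edgeR's quasi-likelihood test. WT replicate 2 was the lowest library for these 3 genes. Leaving it out raises their WT mean, so the choice of library favours these p-values. Without WT replicate 1 instead, *Erbb3* had an unadjusted p of 0.598 in the same test. *Twist1* was at 0.14 without WT replicate 2 (unadjusted p = 0.0992) and at 0.22 without WT replicate 1 (unadjusted p = 0.0483). The 4 libraries with Y-linked transcripts leave out WT replicate 2 as well. Among them, 2 genes had an unadjusted p under 0.05, *Erbb3* (-0.37, unadjusted p = 0.0205) and *Sox9* (-0.37, unadjusted p = 0.0322), against 5.11% of all genes (3.98% lower). *Twist1* (0.11, unadjusted p = 0.283) and *Tfap2b* (0.07, unadjusted p = 0.502) were closer to 0 there. Between the remaining pair of libraries, 5C replicate 2 and WT replicate 2, the log2 ratio was 0.38 for *Sox9*, 0.06 for *Erbb3*, 0.41 for *Tfap2b* and 0.41 for *Twist1*, with no replicate. For *Snai2* it was 0.22, against -0.41 in the other 4 libraries, for *Ngfr* 0.04 against -0.15, for *Sox10* -0.11 against 0.13 and for *Foxd3* -0.22 against 0.10. The libraries of each kind thus gave opposite signs for 6 of the 9 genes, and the same sign for *Tfap2a*, *Tfap2b* and *Twist1*; whether the values differ was not tested.

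Levels were compared between genes as CPM per kilobase of annotated exon. *Twist1* was the most abundant at 42.8 (range over 6 libraries 36.1 to 47.8), 3.64 times the next gene, *Ngfr*, at 11.8. *Sox9* followed at 7.99. *Tfap2b* (5.54), *Sox10* (5.11), *Erbb3* (4.46) and *Snai2* (3.75) came next, and adjacent genes among these 4 overlapped over the libraries. *Foxd3* at 1.60 and *Tfap2a* at 0.796 were the least abundant, and their ranges (1.40 to 1.75 and 0.595 to 1.07) overlapped neither each other nor *Snai2*. The ranges of *Ngfr* and *Sox9* also overlapped, although *Ngfr* was higher in 6 of 6 libraries.

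Closely related factors put these levels in context. The third SoxE gene, *Sox8*, measured 2.08 CPM per kilobase against 5.11 for *Sox10* and 7.99 for *Sox9*. *Tfap2c* reached 2.81, above *Tfap2a* and below *Tfap2b*, while *Tfap2d* and *Tfap2e* had at most 11 counts in any library and were not tested. *Snai1* (4.58) was close to *Snai2*, and *Twist2* (5.99) was far below *Twist1*. Antisense exons of *Gm29100* cover 46.5% of the exon bases of *Twist2*, so its level and fold change are uncertain. *Foxd1* (7.47) and *Foxd2* (2.86) exceeded *Foxd3*. Of the 10 relatives listed 6 were tested, 2 lower and 4 higher in 5C. An unadjusted p under 0.05 was reached by 0 of them, against 6.02% of all genes. The smallest p-values belonged to *Foxd1* (log2 fold change 0.19, unadjusted p = 0.0559), a factor of kidney stroma and retina, *Foxd2* (0.33, unadjusted p = 0.0604) and *Twist2* (-0.11, unadjusted p = 0.372). The relatives named here, other than *Foxd1*, *Foxd2* and *Twist2*, were picked from the list for naming after their values were seen.

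The genes whose pattern over the 6 libraries was most like that of *Sox10* were sought among 15925 tested genes with a mean of at least 1 CPM, by the root mean square difference of centred log2 CPM. The closest were *Mtrf1l* (0.016), *Phactr1* (0.018), *1500009L16Rik* (0.020), *B3galnt1* (0.026) and *Chmp2a* (0.028), against a median of 0.17 over all genes compared. Of the other neural crest genes, *Foxd3* came nearest with 0.085, at rank 1287, and *Tfap2a* was farthest with 0.36, at rank 14248. With 6 libraries and a nearly flat *Sox10*, such likeness is a description of these libraries.

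The programmes around the 9 genes were described with 11 further lists of 126 distinct genes, of which 114 were tested. Of these, 44 were lower (38.6%, against 50.7% of all genes) and 70 higher in 5C. An unadjusted p under 0.05 was reached by 10 (8.77%, against 6.02% of all genes), and 0 were differentially expressed. The genotypes did not overlap for 16 of the 114, against 11.4% of all genes. These genes share the libraries and are not independent. The smallest adjusted p over these lists was 0.781 in edgeR's quasi-likelihood test.

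Upstream, all 9 genes of the neural plate border list were tested, 3 lower and 6 higher, with a median log2 fold change of 0.03. *Zic1*, a zinc-finger factor of the border and dorsal neural tube, had the smallest p. It measured 139, 136 and 134 CPM in the WT libraries, against 156, 164 and 167 CPM in those of 5C, so that all 5C libraries were above all WT libraries. The difference was 0.25 ± 0.06 on the log2 scale (standard error; unadjusted p = 0.00247, adjusted p = 0.781). *Zic2* (0.22, unadjusted p = 0.0925) and *Msx2* (-0.15, unadjusted p = 0.223) followed. In the list of specifiers and partners, 16 of 17 genes were tested, 5 of them lower and 11 higher, where 50.7% of all genes were lower. In this list 0 genes had an unadjusted p under 0.05, against 6.02% of all genes. Its smallest p-values were those of *Ets1* (-0.17, unadjusted p = 0.0588), an ETS factor of cranial crest, *Tcf12* (0.10, unadjusted p = 0.121), a partner of basic helix-loop-helix factors, and *Id2* (0.18, unadjusted p = 0.121), an inhibitor of such factors.

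In the list of migration and adhesion genes, 17 of 17 were tested and the median was -0.0024. The 3 with an unadjusted p under 0.05 (17.6%, against 6.02% of all genes) were all lower in 5C, as were 3.47% of all genes. *Cxcl12*, a chemokine that guides migrating cells, went from 149 ± 9.97 to 126 ± 15.8 CPM (log2 fold change -0.24, unadjusted p = 0.0353), and *Nrp2*, a semaphorin receptor of crest streams, from 137 ± 19.2 to 116 ± 7.66 CPM (-0.24, unadjusted p = 0.0415; SD, n = 3 each). Without 5C replicate 3 *Cxcl12* was at -0.14 (unadjusted p = 0.123), and without WT replicate 1 *Nrp2* was at -0.14 (unadjusted p = 0.178). *Cdh1*, the epithelial cadherin that crest cells lose, measured 42.6, 14.3 and 22.2 CPM in the WT libraries, against 15.8, 14.9 and 17.5 CPM in those of 5C (-0.74, unadjusted p = 0.0446). Its mean difference rested on WT replicate 1, the library rich in yolk sac markers, without which the log2 fold change was -0.15.

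Among derivatives, 8 of 11 genes of the glia and Schwann cell precursor list were tested, and 6 were higher in 5C. An unadjusted p under 0.05 was found for 3 of the 8, against 6.02% of all genes. *Sox2*, kept in neural progenitors and in glial precursors, measured 74.2, 84.9 and 75.1 CPM in the WT libraries, against 89.4, 92.6 and 95.9 CPM in those of 5C, without overlap (0.25, unadjusted p = 0.00923). *Fabp7*, a fatty acid binding protein of glial and neural progenitors, went from 68.1 ± 5.84 to 80.5 ± 9.04 CPM (0.24, unadjusted p = 0.0382; SD, n = 3 each). Without 5C replicate 2 *Fabp7* was at 0.15 (unadjusted p = 0.192). The largest change of any list, -3.20 for *Pou3f1*, a POU factor of promyelinating Schwann cells and neural tissue, came from a single library. *Pou3f1* measured 8.81, 5.67 and 242 CPM in the WT libraries, against 11.7, 8.79 and 5.84 CPM in those of 5C, and without WT replicate 3 the log2 fold change was 0.26. An antisense gene, *Gm2164*, covers 8.57% of its exon bases.

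The melanoblast list had 8 of 9 genes tested, 6 higher, with a median of 0.10. *Ednrb*, the endothelin receptor of melanoblasts and enteric crest, measured 99.4, 111 and 97.3 CPM in the WT libraries, against 118, 121 and 116 CPM in those of 5C, again without overlap (0.21, unadjusted p = 0.0158). *Kit*, the receptor on which melanoblasts depend, was at -0.19 (unadjusted p = 0.159), and *Pmel*, a melanosome protein, at 0.25 (unadjusted p = 0.213). In the autonomic and enteric neuron list 12 of 12 genes were tested, 5 lower and 7 higher. *Hand1* had the smallest p, at 6.41 ± 1.18 CPM in WT and 4.64 ± 0.727 CPM in 5C (-0.47, unadjusted p = 0.0393; SD, n = 3 each), and it also marks heart and extraembryonic mesoderm. Without WT replicate 1, the library rich in yolk sac markers, *Hand1* was at -0.30 (unadjusted p = 0.183). *Gfra1* (0.11, unadjusted p = 0.205) and *Phox2a* (-0.38, unadjusted p = 0.247), a homeobox factor of noradrenergic neurons with only 7 to 22 counts per library, came next.

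In the sensory neuron list 9 of 11 genes were higher in 5C and 2 lower, their median being 0.14 on the log2 scale, the highest of the 11 lists. *Neurod1*, which acts in cranial and spinal ganglia, measured 18.1, 15.5 and 18.2 CPM in the WT libraries, against 18.5, 20.8 and 23.7 CPM in those of 5C, without overlap (0.28, unadjusted p = 0.0464); 7.37% of its exon bases are shared with *Cerkl* on the same strand, so its counts are uncertain to that extent. Without 5C replicate 3 *Neurod1* was at 0.19 (unadjusted p = 0.182). *Neurog2* (0.24, unadjusted p = 0.0547), which sets off sensory neurogenesis, and *Pou4f1* (0.23, unadjusted p = 0.0790), a factor of sensory neuron identity, had the same sign. The genotypes did not overlap for 4 of the 11 genes, against 11.4% of all genes.

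The cranial ectomesenchyme list, 17 of 17 tested, was divided between 9 lower and 8 higher genes with a median of -0.005. In this list 0 genes had an unadjusted p under 0.05, against 6.02% of all genes. Its smallest p-values were those of the homeobox factors *Prrx2* (-0.17, unadjusted p = 0.154), *Alx1* (0.14, unadjusted p = 0.161) and *Dlx6* (0.30, unadjusted p = 0.173). For the cartilage programme downstream of *Sox9*, 7 of 9 genes were tested, 5 of them lower, and the median was -0.03. *Col11a1* (-0.15, unadjusted p = 0.115), *Sox6* (-0.14, unadjusted p = 0.210) and *Col2a1* (-0.09, unadjusted p = 0.279), the last a collagen gene that *Sox9* switches on directly, were the genes with the smallest p. *Col2a1* measured 217, 198 and 214 CPM in the WT libraries, against 215, 197 and 177 CPM in those of 5C, a WT spread of 4.77% beside 24.3% for *Sox9*.

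The partners of *Ngfr* and *Erbb3* were listed separately, and 14 of 16 neurotrophin and neuregulin pathway genes were tested. The median was 0.01, with 6 lower and 8 higher, and 0 had an unadjusted p under 0.05, against 6.02% of all genes. The ligands *Ntf5* (0.36, unadjusted p = 0.106) and *Bdnf* (0.24, unadjusted p = 0.116) and the coreceptor *Erbb2* (-0.13, unadjusted p = 0.306) had the smallest p-values. Antisense exons of *Gm45346* cover 14.4% of the exon bases of *Bdnf*, so its counts are uncertain. *Erbb2* measured 38.5, 29.6 and 38.0 CPM in the WT libraries, against 35.6, 30.2 and 31.0 CPM in those of 5C, and, like *Erbb3*, was lowest in WT replicate 2.

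**Figure D4:**
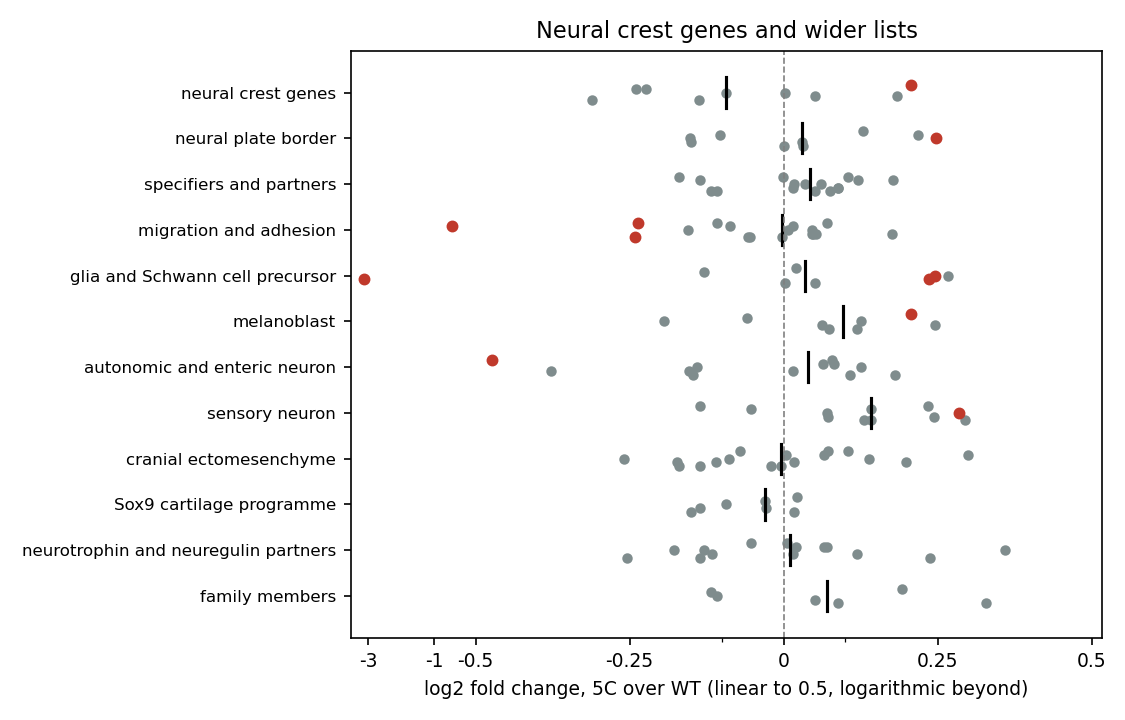
Log2 fold change of 5C over WT for each tested gene of the neural crest genes and the 11 wider lists, on an axis that is linear to 0.5 and logarithmic beyond. Red points have an unadjusted p under 0.05 and black bars mark list medians, which lie between -0.09 and 0.14. The far left point is *Pou3f1*.

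Genes richer in GC tended to lower values in 5C (transcript GC content against log2 fold change, Spearman rho -0.31 over 16770 genes, which share the libraries and are not independent). The median GC content of the 9 genes was 51.2%, against 49.4% over the genes tested, with *Foxd3* at 65.1% and *Snai2* at 42.6% as extremes. With offsets fitted on GC content the log2 fold change was 0.26 for *Twist1* (unadjusted p = 0.0111 in edgeR's quasi-likelihood test). It was 0.16 for *Tfap2b*, 0.09 for *Sox10* and 0.0081 for *Foxd3*. The lower values were -0.04 for *Ngfr*, -0.13 for *Sox9*, -0.21 for *Erbb3*, -0.29 for *Snai2* and -0.31 for *Tfap2a*. The median over the 9 genes was -0.04 with these offsets and -0.09 without them.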

How the data were processed

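The authors prepared stranded poly(A)-selected libraries, aligned the reads to GRCm38 with STAR (build and tool also in the submitters' processing notes) and deposited raw counts per Ensembl gene. The strand setting was not stated. Genotype and replicate were taken from the sample titles. Symbols, exon lengths and 3′ UTRs came from GENCODE M21 of GRCm38, which held 55141 of the 55401 identifiers. The lowest chi-square per gene between any pair of libraries was 5.76, so all 6 were kept as separate samples. Nothing states that they came from separate litters, so p-values measure the spread between these pools.

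Genes were kept by filterByExpr, scaled by TMM and tested with edgeR 4.0.16 (legacy quasi-likelihood F-test, two-sided, Benjamini-Hochberg over all genes tested) in R 4.3.3, with DESeq2 1.42.0 and limma 3.58.1 as alternatives. The standard error was the log2 fold change divided by the square root of F. The procedure was tested on simulated counts. Totals and the level of 3 counts cover counting error only.

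The 9 genes and the lists were chosen with earlier results of these data known. Named were these 9 genes, *Mir483*, *Igf2*, the 5 genes most like *Sox10*, and the 3 genes with the smallest p of each list. *Sox8*, *Tfap2c*, *Tfap2d*, *Tfap2e* and *Snai1* fall outside this rule and were named after their values were seen.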

Additional observations from a re-analysis of the deposited data

How the results depend on the processing

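The count of 0 differentially expressed genes (1011 at an unadjusted p under 0.05) became 319 without a count filter, 11 with DESeq2 and 3 with robust moderation, and was 0 or 1 when a library was left out. The cause was not tested. *Cdh1* and *Pou3f1* passed without a count filter (adjusted p = 2.77e-06 and 9.14e-168 in edgeR). In none of the 19 alternatives did a neural crest gene pass, and their smallest adjusted p was 0.390. The median over the 9 genes lay between -0.1845 and 0.0121 when a library was left out, the positive value arising without WT replicate 3. *Tfap2a*, *Tfap2b*, *Twist1*, *Ngfr*, *Erbb3* and *Snai2* kept their sign in 19 of 19 alternatives. *Foxd3* turned negative under relative log expression (-0.00202), DESeq2 (-0.00185), removal of mitochondrial and globin genes (-0.003), the replicate block (-0.00944) and the block with GC-content offsets (-0.00993). Leaving out a library gave -0.0646 to 0.0793 for *Foxd3*, -0.0389 to 0.0976 for *Sox10*, -0.30 to 0.0218 for *Sox9* and -3.77 to 0.258 for *Pou3f1*. At an unadjusted p under 0.05, 583.0 of 1011.0 genes were lower in 5C (57.7%), against 445.0 of 1050.0 (42.4%) with library size alone.

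List medians moved by more than the replicate SD for glia without a count filter (0.1506), for melanoblast (0.1896), autonomic (-0.1323) and cartilage (-0.0957) without the libraries of lowest Y-linked counts, and for ectomesenchyme with GC-content offsets (0.0464, and 0.0626 with the block). With a library left out, medians spanned -0.0473 to 0.1347 for plate border, 0.0468 to 0.171 for melanoblast, -0.1142 to 0.085 for autonomic, 0.092 to 0.1674 for sensory, -0.0505 to 0.0372 for ectomesenchyme and -0.098 to -0.049 for cartilage.

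Whether replicate numbers pair the libraries was left undecided. With each gene centred within genotype, WT and 5C libraries sharing a number correlated at -0.17, 0.20 and -0.17. Pairs with different numbers ranged from -0.20 to 0.31. With 3 centred libraries per genotype these correlations depend on each other, so they cannot exclude pairing. With the replicate block the count was again 0, and *Twist1* was at 0.209 with an unadjusted p of 0.0571 in edgeR.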

Other observations

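*Pou3f1* stood out in WT replicate 3 with 1517 counts, against 66 to 193 counts in the other libraries. Neural tube markers (*Sox1*, *Sox2*, *Pax6*, *Nes*, *Hes5*) had a summed level of 665 CPM in WT replicate 3 and 644 to 738 CPM in the others.

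The 5 cardiac muscle markers, which were fixed as a check on other cell types, were each lower in 5C. Their summed level was 390, 486 and 397 CPM in the WT libraries, against 338, 325 and 339 CPM in those of 5C, and 3 of the 5 had an unadjusted p under 0.05 (6.02% of all genes), with a median log2 fold change of -0.21. None of the 5 passed adjustment over all genes in edgeR's quasi-likelihood test. Other lists fixed for the same check also shifted. All 8 yolk sac endoderm markers were lower in 5C (median log2 fold change -2.24), and 1 had an unadjusted p under 0.05. Their summed level was highest in WT replicate 1 (6039 CPM). Of 6 tested decidual markers 1 was lower, the median was 1.72, and 3 had an unadjusted p under 0.05.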
